A study of Sus scrofa with 81 samples.

Results

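Skeletal muscle of pigs at D40 was compared with that at D30, a 10-day step after birth in animals of the breed labelled Landrance. The members are 6 of the 81 libraries of the series: 3 libraries of D40 and 3 of D30, chosen by their stage labels, with earlier results of these data known. The series holds 27 stages with 3 libraries each, and the neighbouring stages D20 and D60 are shown beside the comparison where they help to place a level. Stage names were read as days after birth. The labels give no treatment, allele, muscle, sex, litter, feeding, weaning or batch. Whether the 3 libraries of a stage are 3 pigs is not stated either, so the p-values below speak for the spread among libraries alone, and that spread may be technical. Values are FPKM (fragments scaled for transcript length and for the library's total), so each value is relative to its own library. Summed FPKM differ between libraries.

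Skeletal muscle fibres take energy from glucose and from fatty acids, and the enzymes that gate entry into each route follow feeding, hormones and age. Fibres themselves do not divide. Growth after birth adds nuclei from dividing satellite cells, so transcripts of the cell cycle in muscle come from those cells and from the connective tissue, vessels and blood around the fibres. In whole tissue, fewer cells of a type and less RNA per cell cannot be told apart.

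The libraries were muscle by their contractile genes: the 15 fast-fibre genes summed to 44630 to 55910 FPKM in D40 and 30250 to 57740 FPKM in D30 libraries. Between 10175 and 10603 genes reached 1 FPKM in D40 libraries and between 10236 and 11007 in D30 libraries. Ratios of the lowest values showed the steps of single fragments, and by them the other 5 libraries were 0.842 to 0.941 times as deep as D40 replicate 1. The absolute depth was not given. No pair of the 6 libraries held identical values. Correlations over genes on the log2 scale ran from 0.975 to 0.987 within a stage and from 0.957 to 0.98 between D40 and D30. D30 replicate 3 was the library least like the others. It was the most extreme D30 library for 67 of the 80 genes called higher and for 77 of the 110 genes called lower outside the liver lists.

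Calls required an adjusted p below 0.05 (limma on log2(FPKM + 1), Benjamini-Hochberg over 14220 genes tested) together with a log2 fold change of at least 1 in size. Between D40 and D30, 209 genes were called (1.47% of those tested), 80 higher (0.563%) and 129 lower (0.907%) at D40. Leaving out the 2 liver lists described next, 190 were called, 80 higher and 110 lower. The count rested on single libraries of D30: it was 114 without replicate 3 and 319 without replicate 2. In the fit to all libraries and in each of 6 fits that left out 1 library of D40 or D30, 89 genes were called (0.626%), of which 72 lay outside the liver lists, 30 higher and 42 lower. The 6 libraries did not overlap between the stages for 3461 genes (24.3%) and for 194 of the 209 genes called. The median gene stood at -0.10 on the log2 scale at D40 relative to D30, and 32.3% of all genes tested had a positive log2 fold change. Median-ratio scaling of the libraries moved that median to 0.01 and gave 142 genes higher among 247 called. Quantile normalisation gave 123 higher and 104 lower.

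**Figure D1:**
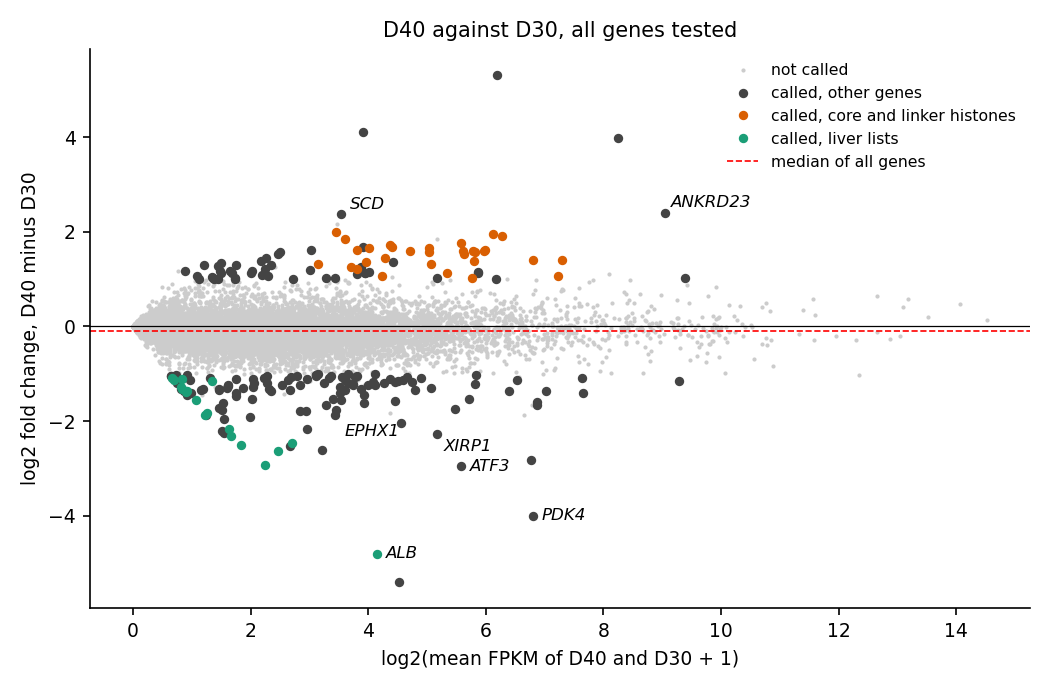
Each point is 1 of the 14220 genes tested, with the log2 of its mean FPKM over both stages plus 1 on the horizontal axis and its log2 fold change, D40 minus D30, on the vertical axis. Of the 209 genes called, 80 lie above 0 and 129 below; 31 core and linker histone genes lie above 0, and 19 genes of the liver lists lie below it.

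Liver transcripts set the D30 libraries apart from the D40 libraries. ALB, which encodes serum albumin, read 0.0499, 0.223 and 0.217 FPKM in the 3 D40 libraries and 28.2, 22.0 and 49.5 FPKM in the 3 D30 libraries. All D30 libraries were above all D40 libraries, and the difference was -4.80 ± 0.56 on the log2 scale (SE; limma, adjusted p = 6.03e-09). FGB and FGA, which encode the beta and alpha chains of fibrinogen, the clotting protein, had the same order of stages. FGB read 0.0714, 0.0426 and 0.0809 FPKM in D40 against 6.22, 5.29 and 10.7 FPKM in D30 libraries (-2.92 ± 0.29). FGA read 0.0473, 0.0145 and 0.0581 FPKM in D40 against 3.98, 4.08 and 7.24 FPKM in D30 libraries (-2.51 ± 0.26). TTR, the thyroid hormone and retinol carrier transthyretin, was listed at 0 in every D40 library and at 2.79, 2.24 and 3.03 FPKM in D30 libraries. APOB, the core protein of liver lipoproteins, was listed at 0, 0.0258 and 0 FPKM in D40 and at 1.20, 1.01 and 2.27 FPKM in D30 libraries (-1.27 ± 0.16). These 5 genes were chosen because earlier results of the same libraries had shown them in D30, so their values and p describe that observation and do not test it. The transcripts of 5 secreted or lipoprotein products were thus near 0 at D40 and highest in D30 replicate 3.

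Of the 110 genes matched to the 2 lists, 45 passed the filter on low values and 19 of these were called, all lower at D40, against 0.907% of all genes tested. The call held in all 7 fits for 17 of them. The list of secreted plasma proteins had 17 of 29 tested members lower, with a median log2 fold change of -1.16, and the list of liver enzymes and surface proteins had 2 of 16 lower, with a median of -0.45, both beside -0.10 over all genes. CYP2E1, which oxidises ethanol, was among the enzymes that fell. TF, the secreted plasma carrier of iron, read 0.845, 0.616 and 1.43 FPKM in D40 against 7.59, 8.59 and 14 FPKM in D30 libraries. Unlike ALB, at 0.0315 and 0.0496 FPKM, TF also read 2.39 and 3.52 FPKM in D20 replicates 2 and 3. HP, the haemoglobin-binding plasma protein haptoglobin, read 0.699, 0.201 and 0.541 FPKM in D40 against 6.67, 6.41 and 12.4 FPKM in D30 libraries. Members that passed the filter include those that passed through the D30 libraries alone, so the counts describe these libraries and support nothing further.

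Not every liver-list gene followed. APOA1, the main protein of high-density lipoprotein, read 35.4, 39.0 and 55.7 FPKM in D40 and 29.9, 37.6 and 41.0 FPKM in D30 libraries (0.24 ± 0.25, adjusted p = 0.593). ITIH4, a plasma protease inhibitor chain, read 7.47, 14.1 and 14.7 FPKM in D40 and 12.1, 11.7 and 11.7 FPKM in D30 libraries. AGT, the precursor of angiotensin, read 3.19, 7.75 and 5.41 FPKM in D40 against 10.6, 9.0 and 12.9 FPKM in D30 libraries, a difference of -0.93 ± 0.32 that missed the fold limit. The summed lists held 91.4 ± 14.2 FPKM in D40 and 206 ± 57.6 FPKM in D30 libraries (SD, n = 3 each), and the members outside those called made up most of the D40 sum. As a share of all FPKM this was 0.0247% ± 0.00392 in D40 and 0.0557% ± 0.0183 in D30 libraries (two-sided exact permutation test, p = 0.1, the smallest that 3 against 3 libraries can give). The lists were set apart because earlier results had shown liver transcripts in D30, so this p describes that observation and does not test it.

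**Figure D2:**
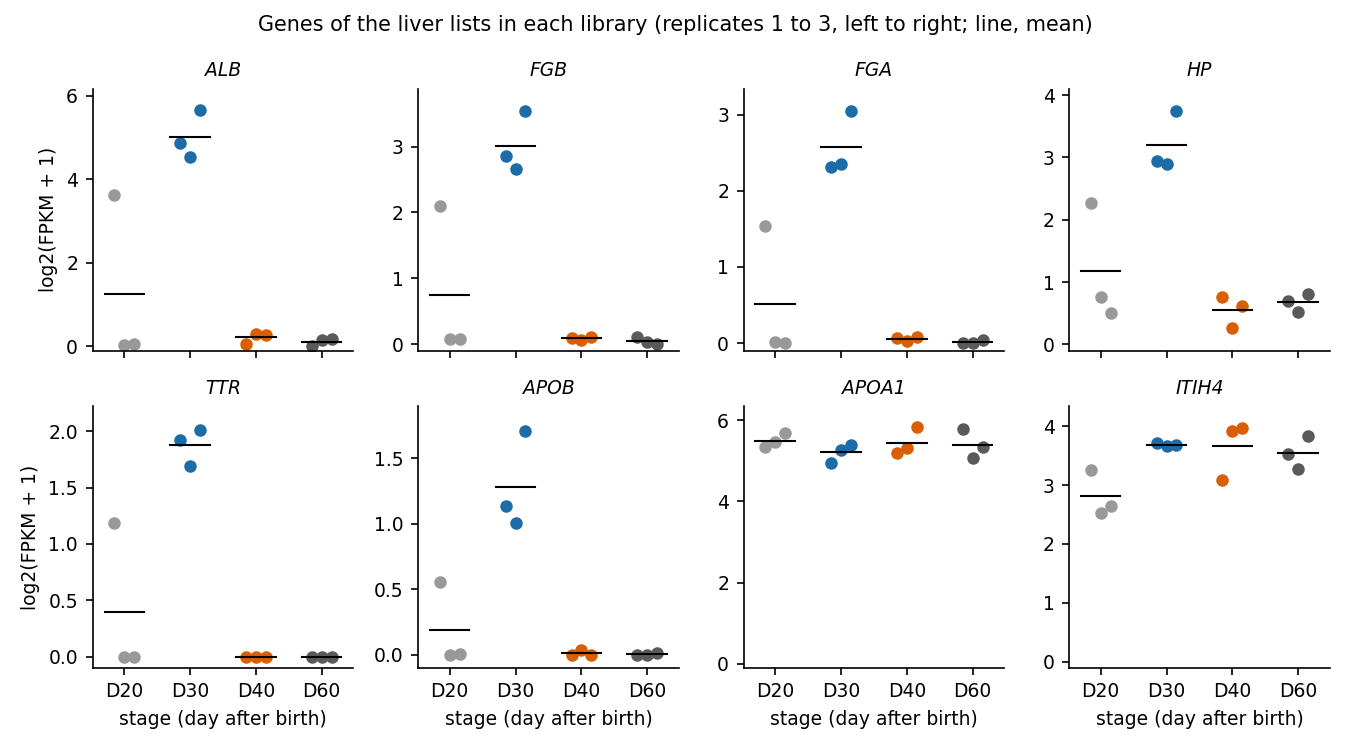
Level of 8 genes of the liver lists as log2(FPKM + 1) in each library of D20, D30, D40 and D60, with a line at the mean of the 3 libraries. ALB, FGB, FGA, HP, TTR and APOB stand high in all 3 D30 libraries and in D20 replicate 1, while the D40 and D30 libraries overlap for APOA1 and ITIH4.

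Outside the comparison, ALB reached 1 FPKM in 3 of the other postnatal libraries: D20 replicate 1 (11.4 FPKM), D100 replicate 2 (25.8 FPKM) and D180 replicate 3 (2.13 FPKM). The other 30 of the 36 postnatal libraries had at most 0.223 FPKM, and the 45 prenatal libraries ran from 0.196 to 3.77 FPKM with a median of 0.564. FGB stood at 0.221, 0.241 and 0.215 times ALB in the 3 D30 libraries, 0.288 times in D20 replicate 1 and 0.1002 times in D100 replicate 2. APOB stood at 0.0425, 0.0458 and 0.0460 times ALB in the D30 libraries, 0.0414 times in D20 replicate 1 and 0.0347 times in D100 replicate 2. In D180 replicate 3 the ratios were 0.0838 for FGB and 0.00885 for APOB. TTR stood at 0.0991, 0.102 and 0.0613 times ALB in the D30 libraries, and APOC3, a lipoprotein component, at 0.0822, 0.131 and 0.147 times. The 3 D30 libraries thus lay closer together for FGB and APOB than for TTR and APOC3. Of 43 liver-list genes that were under 0.1 FPKM in every D40 library and at 0.1 FPKM or more in every D30 library, 41 were highest in D30 replicate 3. Of the same 43, 37 reached 0.1 FPKM in D20 replicate 1, and 1 in each of D20 replicates 2 and 3. Among markers of other abdominal organs, the 10 intestine genes summed to 0.203 to 0.325 FPKM in D40 and 0.549 to 0.983 FPKM in D30 libraries. Most of the D30 sum was APOA4, an apolipoprotein, at 0.287, 0.696 and 0.679 FPKM in D30 and 0, 0.126 and 0.0290 FPKM in D40 libraries. The 10 kidney genes summed to 0.208 to 0.312 FPKM in D40 and 0.257 to 0.584 FPKM in D30 libraries. The 10 pancreas genes summed to 7.55 to 8.63 FPKM in D40 and 6.37 to 7.20 FPKM in D30 libraries, most of it AMY2, an amylase, at 8.16, 8.25 and 6.90 FPKM in D40 and 6.40, 6.03 and 6.35 FPKM in D30 libraries. How liver transcripts came to be in these libraries was not tested.

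D20 replicate 1 also served to find further genes with this pattern, a choice made after the values were seen. Among the genes called lower at D40, 23 were at least 5 times as high in D20 replicate 1 as in each other D20 library, and 16 of them were on the liver lists. The 7 others were the metallothioneins MT1A and MT1D, ADH1C, an alcohol dehydrogenase, SPP2, a secreted phosphoprotein, CFB, complement factor B, LOC396685, which RefSeq names serpin A3-8, and the uncharacterized LOC100519166. Setting these apart as well left 183 called genes.

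ANKRD23, an ankyrin-repeat protein of the sarcomere linked to stretch, had the largest rise among genes with a symbol. It read 582, 924 and 1149 FPKM in D40 libraries against 231, 175 and 103 FPKM in D30 libraries (2.40 ± 0.37, adjusted p = 5.92e-06). All D40 libraries were above all D30 libraries by a wide margin. Means at D20 and D60 were 699 and 721 FPKM, so the D30 level was the low one of the 4 stages. NEXN, the actin-binding Z-disc protein nexilin, read 22.8, 23.0 and 17.6 FPKM in D40 against 8.0, 7.92 and 11.2 FPKM in D30 libraries (1.15 ± 0.21). Both genes are on the list of stretch and Z-disc genes, of which 2 of 13 tested members rose and 1 fell (median -0.15), beside 0.563% of all genes called higher and 0.907% called lower. Median-ratio scaling gave 4 called higher. The one that fell was XIRP1, an actin-binding protein of remodelling sarcomeres, at 9.70, 10.8 and 8.72 FPKM in D40 against 21.6, 95.8 and 62.5 FPKM in D30 libraries (-2.27 ± 0.60, adjusted p = 0.00626). XIRP1 was not called without D30 replicate 3 (adjusted p = 0.0604).

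Of the 32 cell cycle genes tested, 8 rose and 0 fell at D40. TOP2A, the topoisomerase that untangles replicated DNA, read 5.43, 6.76 and 9.87 FPKM in D40 libraries against 2.03, 2.85 and 0.786 FPKM in D30 libraries (1.57 ± 0.28, adjusted p = 6.69e-05). TPX2, a spindle assembly factor, read 2.17, 2.77 and 3.69 FPKM in D40 against 0.703, 0.916 and 0.493 FPKM in D30 libraries (1.18 ± 0.18). Beside these 8 of 32, 0.563% of all genes tested were called higher. All 32 had a positive log2 fold change, against 32.3% of all genes tested. Their median was 0.69 (0.89 with median-ratio scaling). For 26 of the 32 the libraries of the stages did not overlap, as for 24.3% of all genes. The other 6 that rose were KIF11, a spindle motor, CCNB1 and CCNA2, mitotic and S-phase cyclins, UBE2C and CDC20, parts of the anaphase-promoting machinery, and PRC1, which bundles the midzone of the spindle. Without D30 replicate 3, 2 of the list were called. KIF11 then stood at 0.97 and CCNB1 at 0.94, under the fold limit, and without D40 replicate 3 they stood at 0.98 and 0.96. Median-ratio scaling gave 15 members called higher. MKI67, a proliferation marker, read 1.01, 0.886 and 1.5 FPKM in D40 and 0.505, 0.960 and 0.238 FPKM in D30 libraries and was not called (adjusted p = 0.116). The summed list was 139 to 207 FPKM at D20, 47.3 to 66.5 at D30, 89.3 to 142 at D40 and 96.6 to 138 at D60, so that D30 lay below both neighbours.

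Further genes of dividing cells were among the 12 largest rises. TK1, which makes thymidine monophosphate for DNA synthesis, read 4.10, 5.22 and 8.40 FPKM in D40 against 1.21, 3.25 and 0.600 FPKM in D30 libraries (1.44 ± 0.30). PCLAF, a factor bound to the replication clamp, read 3.83, 5.49 and 7.28 FPKM in D40 against 1.52, 2.29 and 0.730 FPKM in D30 libraries (1.39 ± 0.30). PTTG1, the securin that keeps separase inactive until anaphase, read 2.59, 2.85 and 3.69 FPKM in D40 against 0.474, 0.699 and 0.609 FPKM in D30 libraries (1.34 ± 0.21). PBK, a mitotic kinase, rose by 1.28 ± 0.22. Each of these 4 was called in all 7 fits, and in each the 3 D40 libraries were above the 3 D30 libraries. TK1 and PCLAF were not called with only the libraries of both stages in the fit (adjusted p = 0.109 and 0.07).

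Other genes among the 12 largest rises have other roles. TMSB15A, an actin-monomer-binding thymosin, read 4.05, 8.32 and 9.52 FPKM in D40 against 1.62, 2.55 and 1.22 FPKM in D30 libraries. SOX8, a transcription factor, read 5.94, 4.47 and 8.38 FPKM in D40 against 2.09, 1.89 and 1.75 FPKM in D30 libraries, and APLN, the peptide hormone apelin, 4.21, 1.82 and 4.05 FPKM against 1.02, 0.951 and 0.681 FPKM. HNRNPA1, an RNA-binding protein of splicing, varied little within a stage: 70.2, 83.3 and 84.1 FPKM in D40 against 36.9, 33.2 and 34.9 FPKM in D30 libraries (1.15 ± 0.13, adjusted p = 6.03e-09). Its relative HNRNPA2B1, a gene singled out after its values were seen, read 41.6, 44.4 and 55.5 FPKM in D40 against 21.8, 23.3 and 22.8 FPKM in D30 libraries (1.02 ± 0.12).

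Of the 80 genes that rose, 31 were core and linker histone genes, a group formed from RefSeq product names after the values were seen. Core and linker histones package new DNA, and the replication-dependent genes among them give transcripts without a poly(A) tail, which libraries made by depleting ribosomal RNA can still hold. Of 56 such genes in the table, 49 were tested, 31 were called higher and 0 lower, and 14 were higher in all 7 fits. Positive log2 fold changes were found for 43 of the 49. Over all genes tested, 0.563% were called higher; since the group was formed from the calls, nothing is read from the difference. Without D30 replicate 3 the count was 14, and with median-ratio scaling 32. Their summed level was 2843, 3676 and 4247 FPKM in D40 libraries against 2428, 3135 and 1758 FPKM in D30 libraries, so the sums of the stages overlapped. LOC110261661, named histone H1.5, read 79.5, 101 and 137 FPKM in D40 against 28.2, 55.8 and 11.0 FPKM in D30 libraries (1.94 ± 0.38). LOC110261672, named histone H2B type 1-K, read 8.41, 17.7 and 23.6 FPKM against 2.96, 5.78 and 1.49 FPKM (2.01 ± 0.35). LOC110261477, named histone H4, went the other way and was not called. It read 199, 204 and 203 FPKM in D40 against 418, 255 and 295 FPKM in D30 libraries (-0.64 ± 0.22). Copies of these genes are nearly identical in sequence, so values of single members are uncertain. None of the 5 tested replacement variants, whose expression is not tied to DNA synthesis, was called. One of them, LOC100510904, named histone H1.0, a linker histone of cells that do not divide, read 30.8, 28.4 and 26.1 FPKM in D40 against 64.1, 56.3 and 51.2 FPKM in D30 libraries (-0.98 ± 0.12, adjusted p = 3.74e-08), just short of the fold limit.

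**Figure D3:**
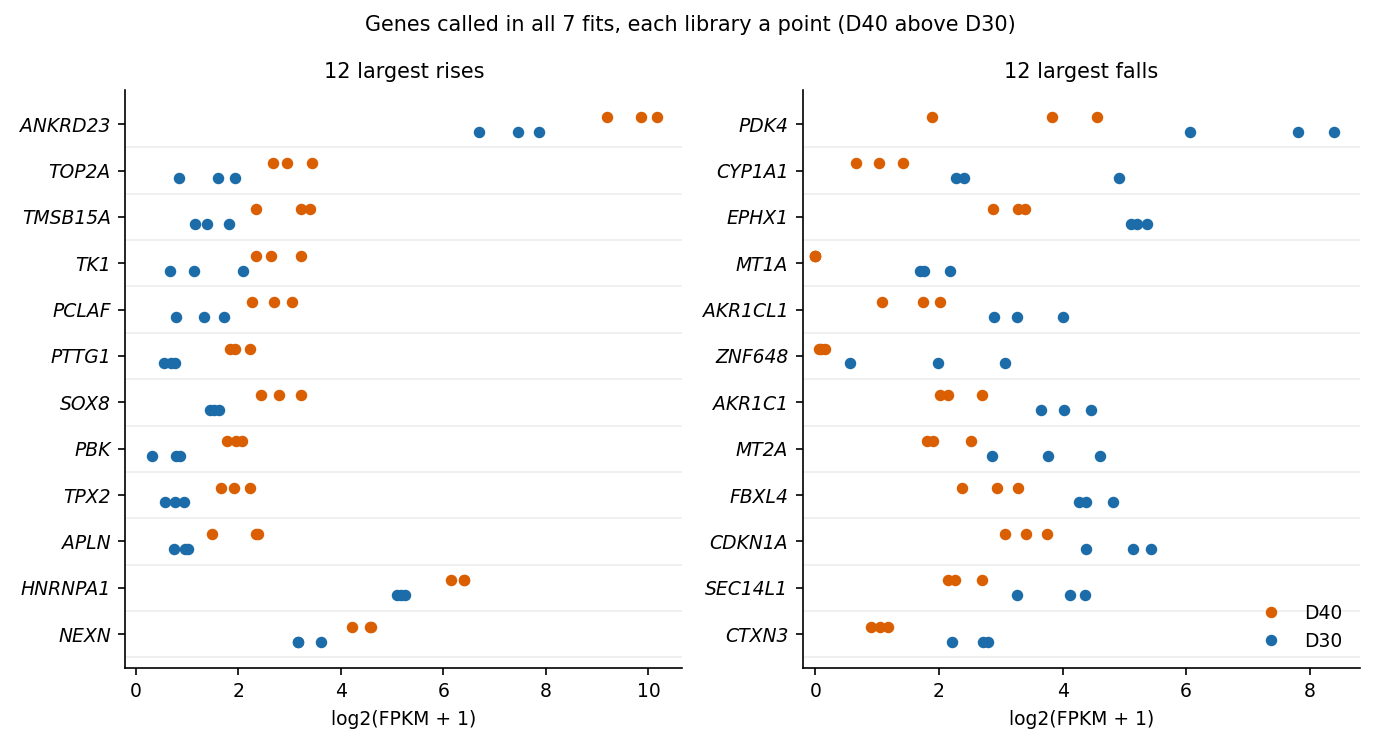
The 12 genes with the largest rises (left) and the 12 with the largest falls (right) among genes with a symbol, outside the liver lists, that were called in all 7 fits, as log2(FPKM + 1), with the 3 D40 libraries above the 3 D30 libraries of each gene. The D40 and D30 points of a gene do not overlap in any of the 24.

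PDK4 fell furthest among genes with a symbol outside the liver lists. PDK4 is the kinase that shuts pyruvate dehydrogenase and so spares glucose when fat is burned. It read 13.2, 22.6 and 2.68 FPKM in D40 libraries against 66.1, 223 and 334 FPKM in D30 libraries (-4.0 ± 0.84, adjusted p = 0.000576). The stages did not overlap, although the libraries within a stage differed several-fold. PDK4 was not called with only the libraries of both stages in the fit (adjusted p = 0.0677) or with the postnatal libraries (0.0537). The D20 libraries read 118, 32.8 and 295 FPKM and the D60 libraries 2.09, 3.57 and 4.26 FPKM, so the D40 mean lay between those of D30 and D60. PLIN2, a coat protein of lipid droplets, fell too, to 13.2, 7.51 and 7.59 FPKM in D40 libraries, against 16.5, 27.9 and 25.3 FPKM in D30 libraries (-1.23 ± 0.26, adjusted p = 0.00061). MLYCD, which removes malonyl-CoA, the inhibitor of fatty acid import into mitochondria, was singled out after its values were seen and read 5.03, 1.6 and 1.37 FPKM in D40 against 3.99, 11.8 and 8.46 FPKM in D30 libraries (-1.34). D40 replicate 1 overlapped the D30 libraries for MLYCD.

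Of the 23 tested genes of fatty acid uptake and oxidation, PDK4 and PLIN2 were the 2 that fell and 0 rose, beside 0.907% of all genes called lower. The list's median was -0.54 (-0.36 with median-ratio scaling) and 21 of 23 members had a negative log2 fold change. Over all genes tested, 32.3% had a positive one, so most genes were negative. ACADVL, the first dehydrogenase for very long fatty acids, read 24.9, 26.3 and 26.9 FPKM in D40 and 52.4, 39.2 and 63.5 FPKM in D30 libraries (-0.94 ± 0.18). CPT1B, the muscle gate for fatty acids into mitochondria, read 23.4, 23.8 and 23.0 FPKM in D40 and 38.3, 41.3 and 41.8 FPKM in D30 libraries (-0.76 ± 0.20). Both missed the fold limit with adjusted p = 0.000155 and 0.00616. UCP3, a mitochondrial carrier, read 18.3, 2.46 and 3.55 FPKM in D40 and 4.23, 19.8 and 36.4 FPKM in D30 libraries and was not called. The list's sum was 621 to 715 FPKM in D40 and 877 to 1313 FPKM in D30 libraries.

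SCD was the 1 gene called of 23 tested for fatty acid and cholesterol synthesis, beside 0.563% of all genes called higher. SCD, the desaturase that makes oleic acid, read 1.79, 18.6 and 38.6 FPKM in D40 libraries against 1.24, 0.869 and 2.72 FPKM in D30 libraries (2.37 ± 0.58, adjusted p = 0.0032). D40 replicate 1 lay within the D30 range, and the call was lost without D40 replicate 3 (1.57, adjusted p = 0.0801). The list's median was 0.37, and 17 of its 23 members had a positive log2 fold change, against 32.3% of all genes tested. Median-ratio scaling gave 4 members called higher, beside 142 of the 14220 genes tested. FASN, the fatty acid synthase, read 3.99, 11.1 and 20.9 FPKM in D40 and 3.94, 3.87 and 8.17 FPKM in D30 libraries and was not called (adjusted p = 0.206). Adipocyte markers summed to 401 to 429 FPKM in D40 and 404 to 636 FPKM in D30 libraries, and 0 of 15 tested were called. Median-ratio scaling, and likewise leaving out D30 replicate 3, gave 1 called higher. THRSP, a lipogenic protein on that list, read 2.71, 17.3 and 28.7 FPKM in D40 and 0.357, 0.382 and 11.1 FPKM in D30 libraries (2.16 ± 0.78, adjusted p = 0.0508), with the same order of the D40 libraries as SCD.

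**Figure D4:**
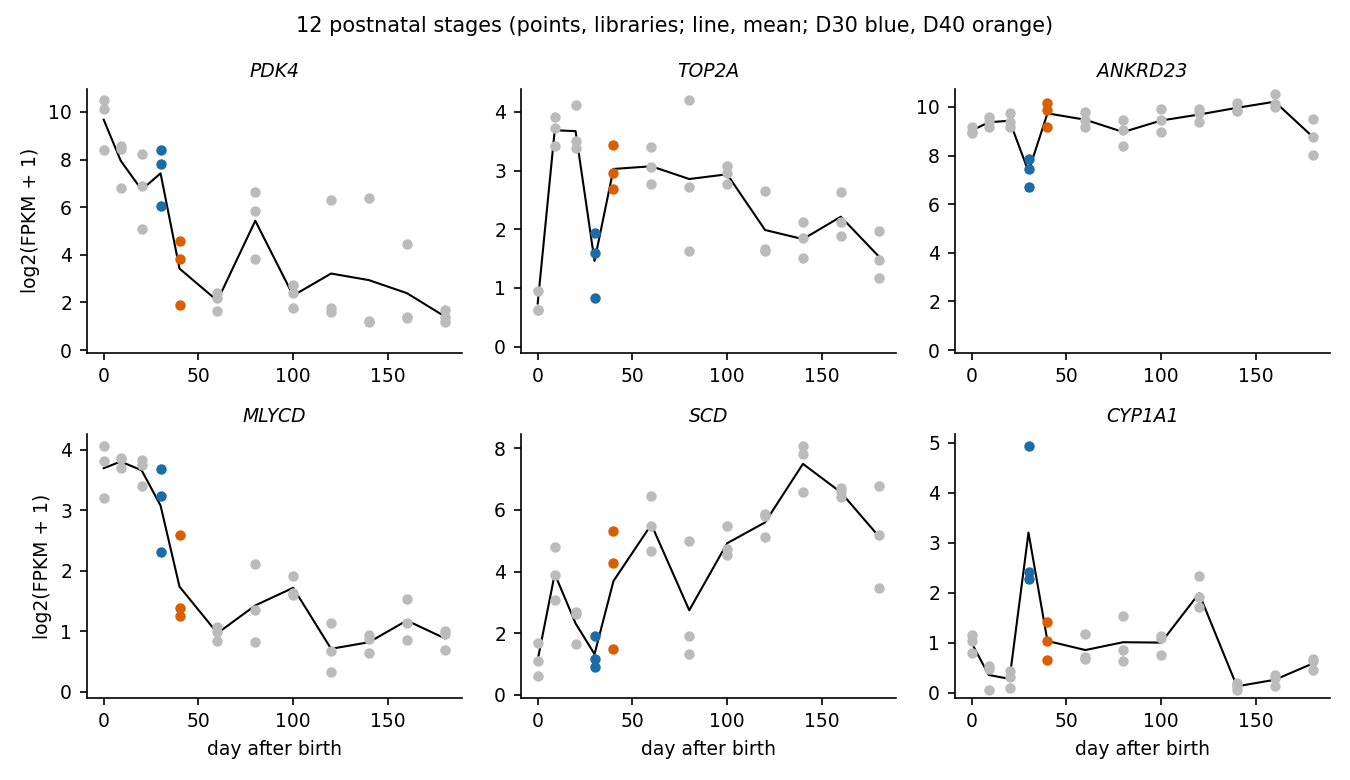
Level of 6 genes as log2(FPKM + 1) against the day after birth for the 12 postnatal stages, with 3 libraries a stage, the mean of the log2 values as a line, D40 in orange and D30 in blue. PDK4 and MLYCD have higher means at D0 to D30 than at any later stage, TOP2A and ANKRD23 are lower at D30 (means of 1.89 and 170 FPKM) than at D20 and D40, and CYP1A1 has its highest mean at D30.

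EPHX1, CYP1A1, AKR1C1 and AKR1CL1, enzymes that act on foreign compounds, carbonyls and steroids, were among the 12 largest falls. EPHX1, the microsomal epoxide hydrolase, read 8.76, 6.33 and 9.51 FPKM in D40 libraries against 33.6, 40.4 and 35.8 FPKM in D30 libraries (-2.04 ± 0.21, adjusted p = 1.85e-10). The D30 libraries lay close together, and the D20 libraries read 9.55, 17.6 and 13.7 FPKM. CYP1A1, the cytochrome P450 induced through the aryl hydrocarbon receptor, read 0.584, 1.04 and 1.67 FPKM in D40 against 4.32, 3.82 and 29.3 FPKM in D30 libraries (-2.16 ± 0.26). D30 replicate 3 was far above the rest, but the call held without it. CYP1A1 was not called with only the libraries of both stages in the fit (adjusted p = 0.139). AKR1C1 and AKR1CL1, aldo-keto reductases of steroid and carbonyl metabolism, stood at 3.43, 5.49 and 3.06 FPKM and at 2.34, 1.10 and 3.07 FPKM in D40, against 15.2, 11.6 and 21.0 FPKM and 8.61, 6.46 and 15.1 FPKM in D30 libraries. Near-identical relatives make the values of single aldo-keto reductases uncertain. The liver also makes these enzymes, and the part of liver transcripts in their falls was not tested.

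The list of oxidative stress and metal-binding genes had 4 of 16 members lower and 0 higher (median -0.31), beside 0.907% of all genes called lower. MT2A, a metallothionein that binds zinc and copper, read 2.74, 4.75 and 2.49 FPKM in D40 against 12.6, 6.25 and 23.4 FPKM in D30 libraries (-1.67 ± 0.35). MT1A was listed at 0 in all 3 D40 libraries and at 2.23, 2.39 and 3.54 FPKM in D30 libraries, and it was one of the genes with the liver pattern. MT3, another metallothionein, read 0.863, 2.06 and 1.81 FPKM in D40 against 5.22, 0.758 and 18.1 FPKM in D30 libraries, with overlapping stages. Its call was lost without any 1 of the 6 libraries except D30 replicate 2, and without D30 replicate 3 it stood at -0.39 (adjusted p = 0.741). FTH1, the heavy chain of the iron store ferritin, read 308, 381 and 439 FPKM in D40 against 776, 572 and 1257 FPKM in D30 libraries (-1.14 ± 0.20, adjusted p = 4.48e-05), and -0.84 without D30 replicate 3. Without that library, 2 of the list were called. Median-ratio scaling also gave 2, with FTH1 at -0.96 and MT3 at an adjusted p of 0.0649.

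Of 15 tested genes known to respond to glucocorticoids, 4 fell and 0 rose, beside 0.907% of all genes called lower. GLUL, the glutamine synthetase, read 55.4, 95.5 and 58.2 FPKM in D40 against 106, 202 and 255 FPKM in D30 libraries (-1.37 ± 0.31, adjusted p = 0.00135). FKBP5, a chaperone partner of the glucocorticoid receptor, read 6.65, 7.19 and 6.35 FPKM in D40 against 11.0, 15.7 and 27.4 FPKM in D30 libraries (-1.21 ± 0.37). CEBPD, a stress-induced transcription factor, stood at -1.22 ± 0.42. MT2A was the other gene called, and the list's median was -0.40. Without D30 replicate 3 the count was 1, and GLUL then had an adjusted p of 0.0509, FKBP5 of 0.258 and CEBPD of 0.125. FKBP5 was not called without D40 replicate 1 or 3 (adjusted p = 0.051 and 0.0511), and CEBPD without any 1 of the 6 libraries except D40 replicate 2 (adjusted p of 0.0625 to 0.184). Median-ratio scaling gave 3, without CEBPD (adjusted p = 0.0878), and 0 were called with only the libraries of both stages in the fit. TSC22D3, a direct target of the receptor, read 17.8, 28.4 and 24.6 FPKM in D40 and 21.9, 26.5 and 29.8 FPKM in D30 libraries and was not called. FBXO32, the muscle ubiquitin ligase atrogin-1, read 4.53, 11.1 and 3.02 FPKM in D40 against 10.5, 14.4 and 23.5 FPKM in D30 libraries (-1.34 ± 0.34, adjusted p = 0.00516). D40 replicate 2 lay above the lowest D30 library. FBXO32 was the 1 called of 17 tested genes of muscle protein breakdown (list median -0.63). Of the 17, 15 had a negative log2 fold change, while 32.3% of all genes tested had a positive one. FBXO32 was not called without D30 replicate 3 (adjusted p = 0.118) or D40 replicate 3 (adjusted p = 0.0694). TRIM63, the partner ligase MuRF1, read 29.7, 85.3 and 54.1 FPKM in D40 and 45.5, 104.9 and 88.3 FPKM in D30 libraries and was not called.

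Immediate early genes, which are switched on within minutes by stress or handling, had 4 of 18 tested members lower and 0 higher (median -0.31), beside 0.907% of all genes called lower. ATF3, a stress transcription factor, read 14.4, 3.63 and 9.63 FPKM in D40 against 36.4, 154 and 60.6 FPKM in D30 libraries (-2.96 ± 0.79, adjusted p = 0.00711). BTG2, an inhibitor of proliferation, read 104.8, 33.9 and 41.0 FPKM in D40 against 126, 270 and 124 FPKM in D30 libraries. IER5 stood at -1.52 ± 0.46, and NR4A3, an orphan nuclear receptor, at -1.42 ± 0.45. None of the 4 held in all 7 fits. ATF3 was lost without D40 replicate 2 (adjusted p = 0.0666), and IER5 without D40 replicate 1 (0.0863) or D30 replicate 2 (0.169). NR4A3 was lost without D40 replicate 2 (adjusted p = 0.121) or D30 replicate 3 (0.466), and BTG2 without any 1 of the 6 libraries except D40 replicate 1 (0.0638 to 0.217). Without D30 replicate 3, 2 of the list were called, and with median-ratio scaling 3, without BTG2 (adjusted p = 0.0999). FOS, the best known of the list, read 99.9, 9.50 and 11.0 FPKM in D40 and 58.1, 93.3 and 13.1 FPKM in D30 libraries, with overlapping stages.

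CDKN1A, the cell cycle inhibitor p21, read 7.37, 9.65 and 12.4 FPKM in D40 against 19.9, 42.2 and 34.3 FPKM in D30 libraries (-1.58 ± 0.24, adjusted p = 2.88e-06). The stages did not overlap. At D60 it was again high, at 39.7, 58.7 and 29.5 FPKM, and at D20 it read 13.0, 23.7 and 15.3 FPKM. ZNF648, which RefSeq types as a lncRNA, read 0.0387, 0.0697 and 0.120 FPKM in D40 against 0.480, 2.98 and 7.43 FPKM in D30 libraries. FBXL4, an F-box protein of mitochondria, read 8.74, 6.72 and 4.17 FPKM in D40 against 18.2, 19.9 and 27.2 FPKM in D30 libraries (-1.62 ± 0.20). SEC14L1, a protein with a lipid-binding Sec14 domain, read 3.45, 3.81 and 5.48 FPKM in D40 against 8.61, 16.5 and 19.5 FPKM in D30 libraries. CTXN3, a small membrane protein of the cortexin family, read 1.07, 1.27 and 0.873 FPKM in D40 against 5.54, 3.65 and 5.94 FPKM in D30 libraries. All 5 were called in all 7 fits. With only the libraries of both stages in the fit, CDKN1A, ZNF648 and SEC14L1 were not called (adjusted p = 0.0611, 0.139 and 0.0662).

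Among 27 tested genes of IGF, insulin and myostatin signalling, 2 fell and 0 rose (median -0.36, 24 of 27 negative), beside 0.907% of all genes called lower. Over all genes tested, 32.3% had a positive log2 fold change. IGF2, the fetal insulin-like growth factor, read 14.6, 18.8 and 18.3 FPKM in D40 against 59.2, 26.1 and 34.8 FPKM in D30 libraries (-1.10 ± 0.32, adjusted p = 0.0159). IRS1, the docking protein of the insulin and IGF receptors, read 8.25, 5.42 and 5.52 FPKM in D40 against 14.5, 9.81 and 26.1 FPKM in D30 libraries (-1.19 ± 0.19). Neither was called without D30 replicate 3, where IRS1 stood at -0.83 and IGF2 had an adjusted p of 0.0596. IGF2 was also lost without D40 replicate 1 (adjusted p = 0.0718) or D30 replicate 1 (0.158). With median-ratio scaling it stood at -0.93, which left 1 member called. IGF1R, the receptor of both IGFs, stood at -0.71 ± 0.18 and MSTN, the growth inhibitor myostatin, at -0.91 ± 0.30, both short of the fold limit.

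Single members of other lists were called, beside 1.47% of all genes. CACNA1S, the voltage sensor of the T-tubule, read 63.2, 53.0 and 51.2 FPKM in D40 against 121, 88.6 and 170 FPKM in D30 libraries (-1.12 ± 0.22), and was -0.88 without D30 replicate 3. CRY2, a repressor of the circadian clock, read 6.66, 5.49 and 6.71 FPKM in D40 against 9.99, 13.8 and 23.9 FPKM in D30 libraries (-1.13 ± 0.23), and was -0.81 without D30 replicate 3. It was the 1 of 19 clock genes called; PER1, another repressor, stood at -0.97 ± 0.27. VWF, the platelet-binding protein of vessel walls, was the 1 of 15 endothelial markers called (-1.05 ± 0.34), while their sum was 154 to 173 FPKM in D40 and 165 to 237 FPKM in D30 libraries. With median-ratio scaling CACNA1S stood at -0.94, CRY2 at -0.99 and VWF at -0.90, and none of their lists had a member called. CNN1, the smooth muscle protein calponin, read 22.9, 31.7 and 29.9 FPKM in D40 against 10.4, 24.4 and 3.96 FPKM in D30 libraries (1.36 ± 0.36), with overlapping stages. It was the 1 of 11 smooth muscle and pericyte markers called, and 9 of the 11 had a negative log2 fold change (median -0.13). The 11 markers summed to 1529 to 1896 FPKM in D40 and 1588 to 1704 FPKM in D30 libraries. VWF and CNN1 were not called without D30 replicate 3 (adjusted p = 0.205 and 0.277), and VWF not without D40 replicate 1 or 3 (0.109 and 0.062). PHGDH, which opens serine synthesis, and ATF5, a stress transcription factor, were the 2 higher members of 23 tested genes of the ATF4 and amino acid response (1.17 ± 0.36 and 1.02 ± 0.31). Neither was called without D40 replicate 2, D40 replicate 3 or D30 replicate 3 (adjusted p of 0.0759 to 0.174), nor ATF5 without D30 replicate 1 (0.054).

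**Figure D5:**
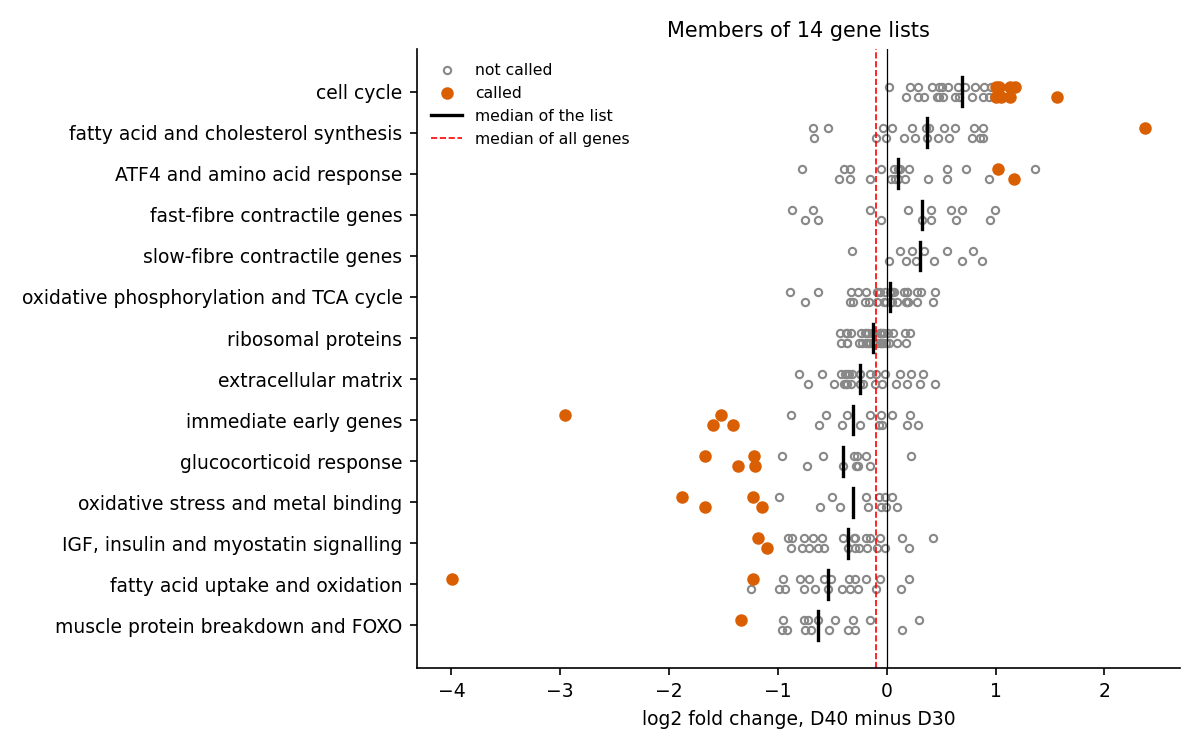
Log2 fold change, D40 minus D30, of every tested member of 14 gene lists, with called members filled, a bar at each list's median and the median of all genes as a dashed line at -0.10. All 32 cell cycle members lie above 0, while 15 of 17 members of muscle protein breakdown and 21 of 23 of fatty acid uptake and oxidation lie below it. Of all genes tested, 32.3% had a positive log2 fold change.

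No gene of the contractile lists was called in either direction in the fit to all libraries. MYH1 and MYH4, the heavy chains of fast 2X and 2B fibres, MYH2, that of 2A fibres, and MYH7, that of slow fibres, were all uncalled. MYH1 averaged 2025 ± 495 FPKM in D40 and 1618 ± 361 FPKM in D30 libraries (SD, n = 3 each; 0.32 ± 0.27 on the log2 scale), and MYH2 475 ± 71.6 FPKM and 309 ± 134 FPKM (0.69 ± 0.41). MYH4 averaged 2547 ± 1316 FPKM in D40 and 2594 ± 447 FPKM in D30 libraries, and MYH7 778 ± 146 FPKM and 778 ± 226 FPKM. Of 15 fast-fibre, 12 slow-fibre and 8 developmental contractile genes tested, 0 were called, with list medians of 0.32, 0.30 and 0.05. Median-ratio scaling gave 1 fast-fibre gene called higher. The 33 genes of oxidative phosphorylation and the TCA cycle (median 0.03), the 25 of glycolysis and glycogen (median 0.04) and the 28 of extracellular matrix (median -0.25) also gave 0 calls. So did the 37 ribosomal protein genes, whose median was -0.13, or 0.06 with median-ratio scaling. Polyamine, interferon, heat shock, neuromuscular junction and myogenic regulator lists gave 0 calls as well. So did the markers of pancreas, kidney, epidermis, leukocytes, cartilage and bone, tendon and nerve, and no intestine gene was tested. With median-ratio scaling the interferon, heat shock and myogenic regulator lists each had 1 member called higher. Haemoglobin beta, HBB, read 288, 1151 and 814 FPKM in D40 and 989, 968 and 2197 FPKM in D30 libraries, and 0 of 8 erythroid genes tested were called.

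A few loci without a gene symbol of their own were near 0 or several-fold lower in all libraries of 1 stage, and were picked after their values were seen. XLOC_189159, which the authors' table types as an antisense lncRNA, read 0.125, 0 and 0 FPKM in D40 against 43.2, 55.6 and 33.6 FPKM in D30 libraries. It was listed at 0 in all D20 libraries and at 27.1, 25.2 and 46.5 FPKM at D60. LOC100518848, named 40S ribosomal protein S21 in RefSeq, read 24.6, 33.8 and 21.0 FPKM in D40 against 174, 208 and 189 FPKM in D30 libraries (-2.82). In the other direction, XLOC_246832, typed as a lincRNA, read 19.4, 32.6 and 30.1 FPKM in D40 against 0.227, 0.744 and 0.981 FPKM in D30 libraries (4.10). Genes typed simply as lncRNA made up 17 of the 110 genes lower and 3 of the 80 genes higher outside the liver lists. They were 4.51% of the genes tested. These counts leave out the loci defined by the authors, such as XLOC_189159, of which 7 were lower and 2 higher among 540 tested. Whether the authors' counting used strand is not stated, so reads of an antisense locus and of its partner gene cannot be told apart.

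The stage means of D60 and D20 use none of the 6 libraries, and these stages bracket the same days. All 81 libraries entered the fit, however, so the 2 comparisons share each gene's estimate of the spread. D60 against D20 gave 113 genes called (0.795%), 45 higher and 68 lower. Of these, 17 were also called between D40 and D30, which is 15% of the calls of D60 against D20 and 8.13% of those of D40 against D30. For 12 the direction was the same. PDK4 (-4.0 for D40 against D30 and -4.66 for D60 against D20), MLYCD (-1.34 and -2.69), PLIN2 (-1.23 and -1.89) and IGF2 (-1.10 and -1.39) were lower in both. SCD (2.37 and 3.21), ATF5 (1.02 and 4.0), PHGDH (1.17 and 2.43) and CNN1 (1.36 and 1.17) were higher in both. For ATF5, PHGDH and CNN1 the mean was lower at D30 than at D20, D40 or D60. Their D40 means were still below their D20 means, unlike that of SCD. Means at D20, D30 and D60 were 4.06, 1.17 and 80.1 FPKM for ATF5 and 4.75, 1.47 and 33.2 FPKM for PHGDH. For CNN1 they were 31.5, 12.9 and 73.7 FPKM. For 5 the direction was opposite, among them CDKN1A (-1.58 and 1.24), XLOC_189159 (-5.41 and 5.03) and 3 core histone genes that were higher in D40 against D30. Of the 80 genes higher at D40 outside the liver lists, 17 had a positive log2 fold change in D60 against D20, where 24.4% of all genes tested had one; of the 110 lower, 75 had a negative one, where 75.4% of all genes did.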

How the data were processed

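FPKM per gene and library were computed by the authors and deposited as 1 table. The submitters' processing notes name Trimmomatic, HISAT2 2.0.4 and StringTie 1.3.1. Per the labels' protocols, libraries were strand-specific and paired-end, from total RNA without ribosomal RNA. Neither the genome build nor the annotation is stated, so no coordinates or sequences are printed. RefSeq (Sscrofa11.1) served only for gene names and for types said to be those of RefSeq. Counts by gene type used the types given by the authors. Of 28325 entries, 264 that repeated one of 248 gene IDs were dropped, leaving 28061 genes.

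Values were analysed as log2(FPKM + 1), a scale that understates changes of low genes, with limma 3.58.1 in R 4.3.3 (mean-variance trend). All 81 libraries entered 1 fit of 27 stage means, with 54 residual degrees of freedom. It covered the 14220 genes that reached 1 FPKM in 3 libraries or more, and SE are from this fit. The fit was tested on simulated data with the same normal spread of a gene in every stage. That simulation does not cover a spread that differs between stages or a single outlying library. The files hold no read counts, so no counting interval was given.

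By rule, the text names the 12 largest rises and 12 largest falls called in all 7 fits, up to 4 called members a list, 4 myosin heavy chains, and ALB, FGA, FGB, TTR, APOB and the 5 other liver-list genes with the highest D30 mean. Other list members are given as members, and the remaining genes are said to be singled out. Some genes that the rule covers are not reported here. The stages compared, the 38 gene lists and the rule were chosen with earlier results of these data known. Alternatives varied the pseudocount, filter, scaling, libraries in the fit, replicate block, fold limit and left-out library. Python 3.11.15 with pandas 2.3.3, numpy 2.4.6 and scipy 1.17.1 made the tables and the exact permutation test.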

Additional observations from a re-analysis of the deposited data

Results flagged for a closer look

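ALB was also present in postnatal libraries outside the stages compared. It read 25.8 FPKM in D100 replicate 2 and 2.13 FPKM in D180 replicate 3, both above the highest D40 library (0.223 FPKM). The other libraries of D100 read 0.018 and 0.0249 FPKM, and those of D180 0 and 0.129 FPKM. The source of these transcripts was not tested.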

How the results depend on the processing

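For D40 against D30, the 209 calls became 548 with a pseudocount of 0.1, 75 with a pseudocount of 5, 63 with only the libraries of the 2 stages in the fit and 2024 by adjusted p alone. With the liver lists left out, the 190 calls became 521, 71, 44 and 1996, and the 89 calls held in all 7 fits became 177, 32, 24 and 435, and 41 with the 36 postnatal libraries in the fit. The 113 calls of D60 against D20 became 258, 54, 23 and 786, and 63 with the postnatal libraries. Leaving out 1 library gave 114 to 319 calls, 97 to 298 without the liver lists and 82 to 150 for D60 against D20. The difference in the liver share was -0.031 percentage points, -0.00417 for the enzymes alone and -0.0373 to -0.0204 with 1 library left out. These counts and shares stayed within 1.5 times, or within the replicate SD for the share, under the other alternatives. Named genes kept their direction wherever they were called; of the 56 that were called, 35 (PDK4 among them) lost their call with only the 2 stages in the fit, 31 with a pseudocount of 5, 19 with the postnatal libraries, 19 without D30 replicate 3, 11 without D40 replicate 3, 8 with median-ratio scaling, 7 with quantile normalisation, and 1 to 6 under each other alternative that ended a call. With only the 2 stages in the fit, list members called were 19 of the liver lists, 1 of the cell cycle, 2 of stretch and Z-disc and 1 of oxidative stress. The replicate numbers do not pair the libraries (correlations of same-numbered deviations of 0.0612, 0.14 and 0.0608), and the replicate block gave 209 calls, 190, 85 and 113. The block ended the call of BTG2 (adjusted p = 0.0537), which left 3 immediate early genes, and gave 1 adipocyte marker called higher. Precision is limited by 3 libraries a stage, unknown absolute depth, and values under about 1 FPKM.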

Other observations

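Loci outside the gene lists had values that few libraries share. XLOC_189159 read 26.4 and 31.2 FPKM in D180 replicates 1 and 3 and 0 FPKM in D180 replicate 2, as well as its D30 and D60 levels. LOC110258215, named progesterone receptor-like in RefSeq, read 107, 73.7 and 223 FPKM in D40 libraries and 27.4, 0 and 0 FPKM in D30 libraries, and was also listed at 0 in 1 or more libraries of D9, D80, D120 and D180. LOC100518848 read 169, 166 and 158 FPKM at D180, 126 FPKM in D20 replicate 3 and 107 FPKM in D120 replicate 2, against 174 to 208 FPKM at D30, and 14.3 to 53.3 FPKM in the remaining postnatal libraries. XLOC_246832 read 0.519 and 0.382 FPKM in D20 replicates 2 and 3, 0.0796 to 0.102 FPKM at D120 and 0.0894 to 0.797 FPKM at D180, near its D30 level. XLOC_444043 read 1013, 186 and 519 FPKM in D40 libraries and 20.5, 62.5 and 17.3 FPKM in D30 libraries.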
